A study of Mus musculus with 48 samples.

Results

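The acute transcriptional response of the newborn mouse lung to hyperoxia was measured here at postnatal day 5 (P5), over 4 genotypes. The comparison set 10 animals exposed to 95% oxygen (O2) against 12 animals kept in room air (RA), 22 of the 48 animals of the series. Members were chosen by age and treatment, and 2 of the 24 animals at P5 were left out, because their libraries held few genes. This choice was made with earlier results of these data known. All animals were of the 4 core genotypes (FCG) model on the C57BL/6J background, in which the testis gene Sry is absent from the Y chromosome and is carried as a transgene on an autosome. XXF and XYF mice therefore had ovaries, and XXM and XYM mice had testes. Room air held 3 animals of each genotype. O2 held 3 XXF, 3 XYF, 3 XYM and 1 XXM animals. Pups breathed O2 from P1 to P4, in the saccular stage, with collection at P5, by the study's methods, whereas the series description ends exposure at P5 and puts the early collection at P7. The age in the sample labels is followed here. The labels do not give litters, so animals may share them. Another 24 animals taken at P21 served only to ask whether the response differed between ages. They were 3 room-air and 3 O2 animals of each genotype, the O2 animals after recovery in room air. No sample was sorted by cell type, so fewer cells of a type and less RNA per cell cannot be told apart in these whole-lung libraries.

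Oxygen in excess gives rise to reactive species that damage lipids, proteins and DNA. Damaged DNA stabilizes p53, a transcription factor that turns on inhibitors of the cell cycle, and oxidized sensor proteins release NRF2, which turns on genes for glutathione synthesis and detoxification. In the saccular lung, alveolar myofibroblasts that carry PDGFRA lay down elastin at the tips of growing septa, and a capillary plexus extends into them, so that airspaces are divided into alveoli. Newborn rodents kept in hyperoxia are a standard model of bronchopulmonary dysplasia, in which this division is arrested.

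Libraries held 7092802 to 56798952 counts in room air (median 16555050) and 6008291 to 20820622 counts in O2 (median 10919034). Depth overlapped between the treatments, and the difference of mean log10 totals, O2 minus RA, was -0.204 (two-sided permutation test, 100000 resamples, p = 0.0734). The left-out animals, XXM O2 22 and 23, had a count in 17764 and 15985 genes, against 21775 to 25515 genes in the other exposed animals. Differences between animals of a group exceeded counting noise in all 21 pairs (chi-square per degree of freedom 3.33 to 13.6), so no library was counted as a repeat of another. Chromosomes matched the labels, since Xist stood at or above 1048 CPM (counts scaled to a library of 1000000) in the 10 XX animals and at or below 2.88 CPM in the 12 XY animals. Lung markers matched the labeled tissue: the surfactant gene Sftpc ran from 13097 to 17826 CPM (median 15017) in room air and from 14029 to 18947 CPM (median 16236) in O2. Transcripts encoded by mitochondria took 1.45% to 1.73% of counts in room air and 2.06% to 2.23% in O2, without overlap.

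Of 16323 genes tested, 529 rose and 743 fell under hyperoxia. A gene was called when its adjusted p lay under 0.05 and its change was at least 1.5-fold, in a fit of raw counts with genotype as a block (edgeR quasi-likelihood F test, Benjamini-Hochberg adjustment over all tested genes). Called genes were 7.79% of those tested, with 3.24% up and 4.55% down. At the adjusted p alone 7965 genes passed, so that small changes were widespread and the fold minimum set the number of calls. At least 2-fold changes were met by 215 genes that fell and 83 that rose. Falls were 58.4% of calls, and 52.8% without room-air animals 1, 3, 5, 10 and 11, which held the most skeletal muscle transcripts (described below). The 2-fold counts were not repeated without these animals. Every exposed animal stood above every room-air animal for 606 genes (3.71%) and below for 570 genes (3.49%), 1176 genes in all (7.2%). Of the called genes, 195 that rose and 227 that fell showed no overlap. The median log2 fold change of all tested genes was -0.000747.

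**Figure D1:**
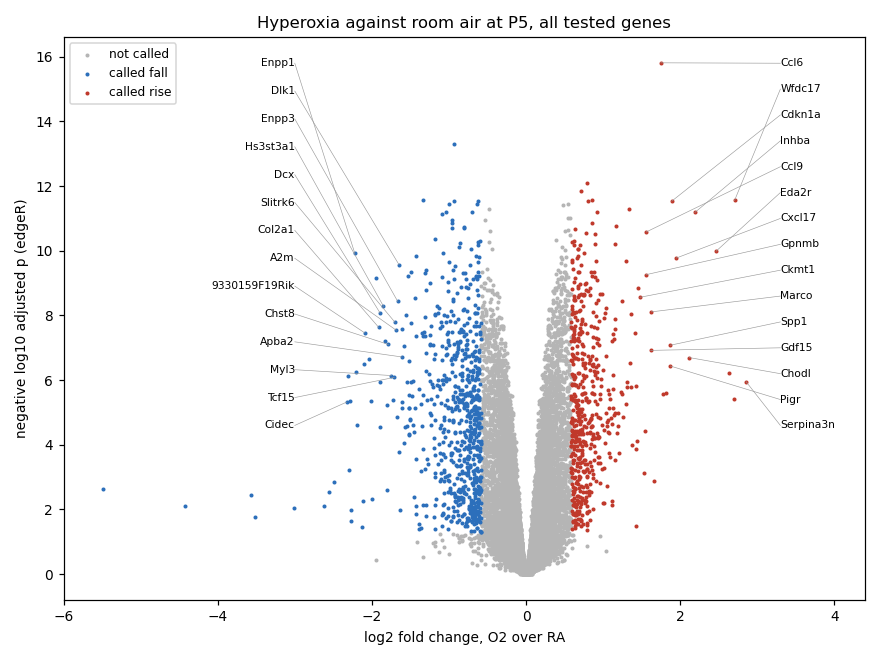
Each point is 1 of the 16323 tested genes, placed by its log2 fold change (O2 over RA, x axis) and the negative log10 of its adjusted p (y axis). Red points are the 529 called rises and blue points the 743 called falls; labels mark genes among the 15 largest rises and falls of protein-coding genes with a mean of at least 1 CPM and no overlap between treatments.

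Among called protein-coding genes with a mean of at least 1 CPM and no overlap between treatments, the largest rises were those of Serpina3n, Wfdc17, Eda2r and Inhba, each above 4-fold. Serpina3n, a serine protease inhibitor of the acute phase, ran from 0.71 to 1.98 CPM (median 1.02) in room air and from 2.49 to 23.2 CPM (median 5.43) in O2. All 10 exposed animals were above all 12 controls, and the log2 fold change was 2.86 ± 0.37 (± SE of the fit, adjusted p = 1.12e-06), with the largest SE among the 15 leading rises. Wfdc17, a small secreted protein of activated macrophages, ran from 1.04 to 2.07 CPM (median 1.48) in room air and from 6.49 to 16.4 CPM (median 9.35) in O2, again without overlap (2.71 ± 0.14 on the log2 scale, adjusted p = 2.78e-12). Inhba, the subunit that forms activin A, ran from 1.49 to 2.67 CPM (median 2.11) in room air and from 4.91 to 14.3 CPM (median 9.39) in O2. The groups did not overlap for Inhba either, and the change was 2.19 ± 0.13 on the log2 scale (4.56-fold, adjusted p = 6.54e-12). Cxcl17, a mucosal chemokine, rose by 1.95 ± 0.14, Pigr, which carries immunoglobulins across epithelium, by 1.87 ± 0.22, and the lectin gene Chodl by 2.12 ± 0.24 (adjusted p = 1.68e-10, 3.65e-07 and 2e-07). Ckmt1, a mitochondrial creatine kinase, closed the 15 largest of these rises at 1.48 ± 0.13 (adjusted p = 2.74e-09). Eda2r, Cdkn1a, Gdf15, Ccl6, Ccl9, Spp1, Marco and Gpnmb complete them and are described with their lists.

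Among called protein-coding genes of at least 1 CPM without overlap, the largest falls were those of Cidec, Enpp1 and 9330159F19Rik. Enpp1, which splits extracellular ATP into AMP and pyrophosphate, ran from 18.4 to 44.3 CPM (median 35.1) in room air and from 5.49 to 9.23 CPM (median 6.55) in O2. Every exposed animal lay below every control, and the log2 fold change was -2.22 ± 0.16 (4.66-fold lower, adjusted p = 1.19e-10). Its relative Enpp3 fell with it, at -1.66 ± 0.15 (adjusted p = 3.66e-09). Cidec, a lipid droplet protein, ran from 1.65 to 7.5 CPM (median 2.28) in room air and from 0.139 to 1.17 CPM (median 0.521) in O2 and changed by -2.33 ± 0.34 (adjusted p = 4.75e-06). Dlk1, an imprinted inhibitor of fat cell differentiation that is high before birth, ran from 56.8 to 103 CPM (median 81.8) in room air and from 18.2 to 39.5 CPM (median 22.9) in O2. Neither Cidec nor Dlk1 overlapped between treatments, and Dlk1 changed by -1.65 ± 0.12 (adjusted p = 2.7e-10). The protease inhibitor A2m changed by -1.68 ± 0.17 and the cartilage collagen Col2a1 by -1.91 ± 0.19 (adjusted p = 2.86e-08 and 2.33e-08). The microtubule gene Dcx fell by 1.89, the adhesion gene Slitrk6 by 1.70 and the adaptor gene Apba2 by 1.61 on the log2 scale. The sulfotransferases Hs3st3a1 and Chst8 fell by 1.85 and 1.79, the transcription factor Tcf15 by 1.71, the myosin light chain Myl3 by 1.75 and 9330159F19Rik by 2.09 on the same scale. Adjusted p-values of these 8 genes ran from 5.22e-09 to 8.23e-07.

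**Figure D2:**
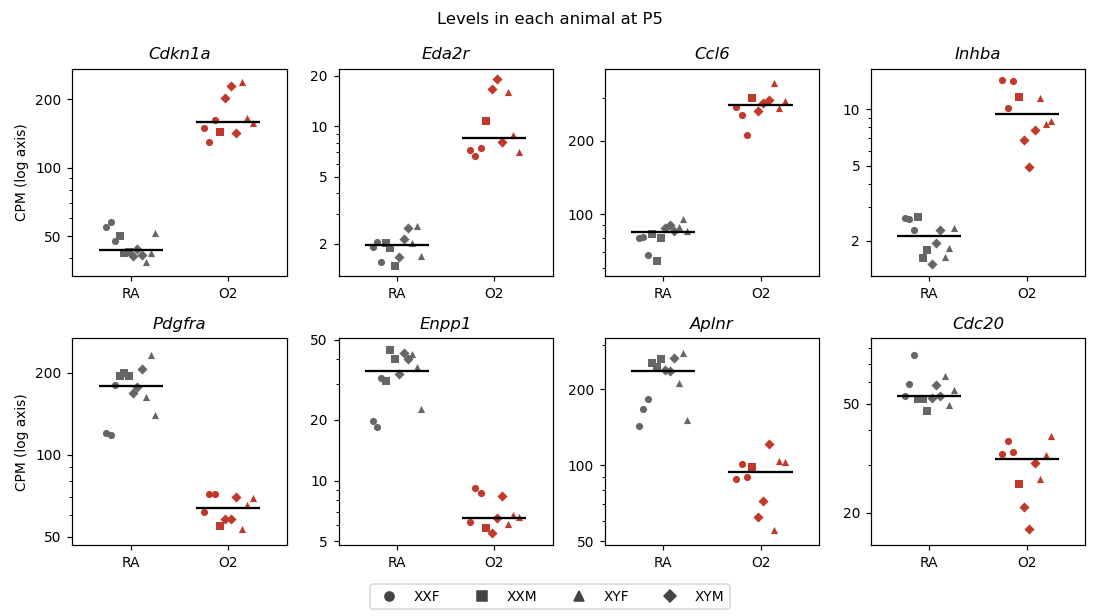
Levels of 8 genes in each of the 22 animals are shown in CPM on log axes, with room air at the left and O2 at the right of each panel; marker shapes give the genotype and bars the median. Cdkn1a, Eda2r, Ccl6 and Inhba lie higher, and Pdgfra, Enpp1, Aplnr and Cdc20 lower, in all 10 exposed animals than in all 12 controls.

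Several targets of p53 were among these rises. Of 25 tested targets 5 rose (Cdkn1a, Eda2r, Gdf15, Zmat3 and the cyclin gene Ccng1) and 0 fell, and the median log2 fold change was 0.38, against a background of 3.24% rises and a median near 0 for all genes. Cdkn1a, the p21 inhibitor of cyclin-dependent kinases, ran from 38.5 to 57.7 CPM (median 43.3) in room air and from 130.2 to 237 CPM (median 159.6) in O2. The lowest exposed animal was well above the highest control, and the change was 1.89 ± 0.10 on the log2 scale (3.71-fold, adjusted p = 2.91e-12). Eda2r, a death receptor for ectodysplasin A2 encoded on the X chromosome, ran from 1.48 to 2.56 CPM (median 1.97) in room air and from 6.63 to 19.2 CPM (median 8.51) in O2. Its groups were apart as well, at 2.47 ± 0.17 (adjusted p = 1.03e-10), with the highest level in XYM animal 26. Zmat3, an RNA-binding zinc finger protein, rose by 0.87 ± 0.08 and Gdf15, a stress cytokine, by 1.62 ± 0.18 (adjusted p = 7.95e-09 and 1.2e-07). The ubiquitin ligase Mdm2, which degrades p53, and the death gene Bax stayed under the fold minimum at 0.31 ± 0.04 and 0.57 ± 0.05 on the log2 scale (adjusted p = 3.11e-06 and 7.75e-09). Cdkn1a is encoded at chr17:29090976-29100727 (GRCm38, GENCODE vM21), and the 150 bases before the first of its starts in the RefSeq table (chr17:29090829-29090978, GRCm38.p6, plus strand) are shown because p53 half-sites can be read in them, in capitals.
Cdkn1a: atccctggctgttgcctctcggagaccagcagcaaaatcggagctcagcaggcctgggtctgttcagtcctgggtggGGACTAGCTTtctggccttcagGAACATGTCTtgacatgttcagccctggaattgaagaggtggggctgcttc
A p53 half-site (the 10-letter consensus, on either strand) was found in 9 of 20 matched targets within 250 bases before and 50 after a start, and in 8.36% of all 32851 promoters of that length. Of the 4 matched targets that were called, 2 held it. In Cdkn1a the half-sites begin 73 and 51 bases before the start.

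Among NRF2 targets and antioxidant genes, heme oxygenase and the metallothioneins rose. Of 26 tested NRF2 targets 6 rose and 0 fell (median 0.38), where 3.24% of all tested genes rose. The rises were Hmox1, Ephx1, Srxn1, the cystine transporter Slc7a11, the reductase Akr1b8 and the glutathione transferase Gsta2. The summed level of the list ran from 2288 to 2554 CPM (median 2436) in room air and from 2687 to 3609.9 CPM (median 3014) in O2, without overlap. Hmox1, heme oxygenase, ran from 34 to 41.3 CPM (median 38.1) in room air and from 44.8 to 149.7 CPM (median 62.2) in O2. All exposed animals were above all controls, XYM animal 25 far above the rest, and the change was 0.83 ± 0.14 on the log2 scale (adjusted p = 4.15e-05). Ephx1, an epoxide hydrolase, ran from 43.1 to 55.8 CPM (median 49.3) in room air and from 74.1 to 97.3 CPM (median 83.8) in O2 and rose by 0.80 ± 0.04 (adjusted p = 2.91e-12). Srxn1, which repairs oxidized peroxiredoxins, changed by 0.59 ± 0.07 (adjusted p = 1.03e-07), at the fold minimum, and lost its call in 9 of 22 fits that left out 1 animal. The quinone reductase Nqo1 and malic enzyme Me1 stood at 0.44 ± 0.10 and 0.43 ± 0.04 (adjusted p = 0.000737 and 5.21e-09) and were not called. Of 19 antioxidant genes 3 rose (Mt1, Mt2 and the glutathione peroxidase Gpx2) and 0 fell (median 0.19). The metallothioneins Mt1 and Mt2, which bind zinc and copper, rose by 0.76 ± 0.06 and 0.92 ± 0.10 (adjusted p = 2.1e-09 and 7.07e-08). Mitochondrial superoxide dismutase Sod2 stood at 0.50 ± 0.05 and peroxiredoxin Prdx6 at 0.57 ± 0.04, both without overlap between treatments (adjusted p = 1.15e-08 and 3.36e-11) but under the fold minimum. The antioxidant response element TGACNNNGC, on either strand, was present in 7 of 22 matched targets and in 12.4% of all promoters. Of the 5 matched targets that were called, 1 held it, namely Srxn1.

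Targets of the sensors of aromatic compounds and of low oxygen were also listed, where 7.79% of all tested genes were called. Cyp1a1, the cytochrome P450 induced through the aryl hydrocarbon receptor, ran from 0.972 to 17.7 CPM (median 2.6) in room air and from 0.164 to 2.19 CPM (median 0.612) in O2. The treatments overlapped, and Cyp1a1 fell by 2.30 on the log2 scale with an SE of 0.50 (adjusted p = 0.000581), while Aldh3a1, an aldehyde dehydrogenase on the same list, rose by 0.90 ± 0.11 (adjusted p = 5.79e-07). These were the 2 called members of 6. Of 22 targets of hypoxia-inducible factors 1 rose and 0 fell (median 0.10). Vegfa, the main vascular growth factor, ran from 635 to 755 CPM (median 681) in room air and from 615 to 692 CPM (median 657) in O2 and did not pass (-0.05 ± 0.03 on the log2 scale, adjusted p = 0.194). The called member was Ankrd37, an ankyrin repeat gene, at 0.79 ± 0.17 (adjusted p = 0.000382), with overlapping treatments. The 150 bases before its start (chr8:45999851-46000000, GRCm38.p6, minus strand) are shown with the core ACGTG of the hypoxia response element in capitals, beginning 6 bases before the start.
Ankrd37: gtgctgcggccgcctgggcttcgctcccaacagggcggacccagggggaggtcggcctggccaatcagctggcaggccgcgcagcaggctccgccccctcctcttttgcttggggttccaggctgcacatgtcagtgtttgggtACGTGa
This core, on either strand, was present in 15 of 20 matched targets and in 19.6% of all promoters. Of 17 genes of unfolded protein and amino acid stress 0 were called (median 0.17), and of 9 heat shock genes 1 rose, the chaperone gene Hspa1b (median 0.11).

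Most genes of mitosis fell. Of 24 mitotic genes 17 fell and 0 rose, against 4.55% falls among all tested genes, with a median log2 fold change of -0.69. Of 25 replication genes 0 were called by edgeR (median 0.09), and 4 had an adjusted p under 0.05. The summed level of the mitotic list ran from 1332 to 2298 CPM (median 1512) in room air and from 575 to 1458 CPM (median 1089.5) in O2. It overlapped, with the 3 lowest levels in exposed animals XYM 26, XYM 25 and XYF 29 at 575, 702 and 743 CPM, the same 3 animals that were highest for Eda2r. Room-air animals XXF 1, XXF 2, XXF 3 and XYF 15 held 1855 to 2298 CPM, and the other 8 room-air animals 1332 to 1598 CPM. For replication genes the same 4 animals held 1718 to 1935 CPM, the other 8 room-air animals held 1104 to 1313 CPM and the exposed animals 1092 to 1748 CPM. Animals 1, 2 and 15 were also the lowest room-air animals for the summed endothelial identity and elastic fiber lists, and the part of this split in the results was not tested. Cdc20, which activates the anaphase-promoting complex, ran from 47 to 75.5 CPM (median 53.4) in room air and from 17.5 to 38.1 CPM (median 31.5) in O2. No exposed animal reached the lowest control, and the change was -0.97 ± 0.09 on the log2 scale (1.96-fold lower, adjusted p = 7.39e-09). Cenpf, a kinetochore protein, changed by -1.01 ± 0.10 and Ube2c, the ubiquitin-conjugating enzyme of mitotic exit, by -0.93 ± 0.09, again without overlap (adjusted p = 3.29e-08 and 1.62e-08). Mki67, the Ki-67 antigen, ran from 250.2 to 427 CPM (median 279) in room air and from 97.8 to 262 CPM (median 196) in O2, with overlap, and fell by 0.77 on the log2 scale (adjusted p = 1.52e-06). Top2a, DNA topoisomerase 2, stood at -0.55 ± 0.09, under the fold minimum (adjusted p = 2.94e-05). Of the replication genes, the helicase subunit Mcm2 ran from 65.9 to 121 CPM (median 79.9) in room air and from 72.3 to 118 CPM (median 102) in O2 (0.16 ± 0.08, adjusted p = 0.0984), the clamp Pcna stood at 0.15 ± 0.06 and the ribonucleotide reductase subunit Rrm2 at -0.27 ± 0.11 on the log2 scale (adjusted p = 0.0436 and 0.0395).

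Promoters of mitotic genes often share a cell cycle element (CHR, TTTGAA) and CCAAT boxes. The CHR, on either strand, was present in 14 of 19 matched mitotic genes and in 17.9% of all promoters, and CCAAT in 16 of 19 and in 37.4%. The 150 bases before the start are shown for the called members that hold a CHR there and had the smallest p, with both elements in capitals: Cdc20 at chr4:118437344-118437493 on the minus strand and Ube2c at chr2:164769779-164769928 on the plus strand (RefSeq, GRCm38.p6).
Cdc20: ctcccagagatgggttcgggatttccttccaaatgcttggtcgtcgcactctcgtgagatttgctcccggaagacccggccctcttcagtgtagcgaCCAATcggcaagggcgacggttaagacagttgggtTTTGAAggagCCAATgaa
Ube2c: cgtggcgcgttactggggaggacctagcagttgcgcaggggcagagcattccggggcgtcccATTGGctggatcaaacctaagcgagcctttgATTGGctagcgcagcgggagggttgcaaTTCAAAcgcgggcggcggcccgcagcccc
In Cdc20 the CHR begins 18 bases and the CCAAT boxes 53 and 8 bases before the start. In Ube2c, where all 3 elements are read on the other strand, the CHR begins 29 bases and the CCAAT boxes 88 and 57 bases before it. A match is a description of these letters, and binding was not measured.

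**Figure D3:**
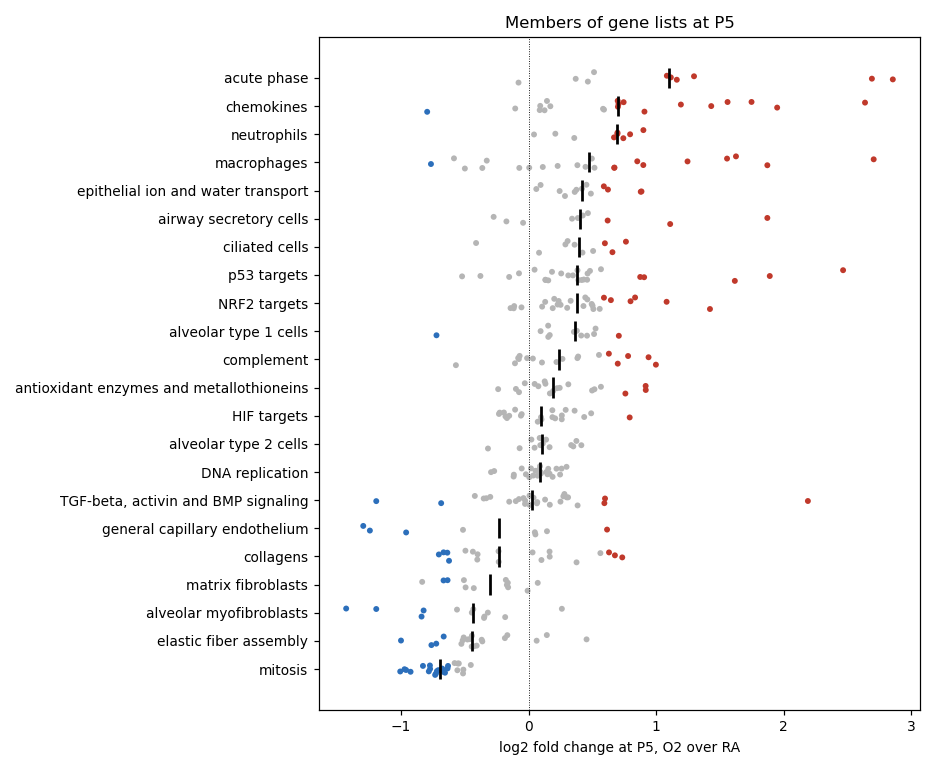
Each point is a tested member of a gene list, placed by its log2 fold change at P5 (O2 over RA); red and blue points are called rises and falls, gray points were not called, and black bars are list medians. Mitosis, alveolar myofibroblasts and elastic fiber assembly lie mostly below 0, and acute phase, chemokines and macrophages mostly above.

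Most of the acute phase, chemokine and neutrophil genes rose, against 3.24% of all tested genes. Of 10 acute phase genes 6 rose and 0 fell (median 1.10), and their summed level ran from 563 to 731 CPM (median 653) in room air and from 1091 to 1757 CPM (median 1219) in O2, without overlap. Hp, haptoglobin, ran from 259 to 398 CPM (median 299.5) in room air and from 627 to 888 CPM (median 694) in O2 and changed by 1.16 ± 0.07 on the log2 scale (adjusted p = 1.67e-11). Every exposed animal exceeded every control for Hp and for Lcn2, the iron-scavenging lipocalin 2, which ran from 52.4 to 92.5 CPM (median 72.5) in room air and from 119 to 361 CPM (median 157) in O2 (1.30 ± 0.19, adjusted p = 5.29e-06). Saa3, serum amyloid A3, ran from 0.99 to 13.3 CPM (median 4.92) in room air and from 9.98 to 101 CPM (median 23.8) in O2. The groups overlapped for Saa3, XYM animal 25 and XYF animal 29 were highest, and the change was 2.69 ± 0.38 (adjusted p = 3.73e-06). Of 20 tested chemokines 11 rose and 1 fell (median 0.70). Ccl6, a chemokine of myeloid cells, ran from 64.2 to 95.5 CPM (median 84.1) in room air and from 212 to 343 CPM (median 279) in O2. Its groups were far apart, and the change of 1.75 ± 0.06 had an adjusted p of 1.54e-16. Ccl9, a relative of Ccl6, ran from 8.24 to 12.1 CPM (median 10.5) in room air and from 24.6 to 50.4 CPM (median 29.2) in O2 (1.56 ± 0.10, adjusted p = 2.62e-11), and Cx3cl1, fractalkine, rose by 0.70 ± 0.06 (adjusted p = 1.05e-09). Ccl5, a T cell chemokine, was the member that fell, at -0.80 ± 0.20 (adjusted p = 0.00192), and it was not called when animals 22 and 23 were kept.

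Macrophage genes rose in part, and a surface lectin of alveolar macrophages fell, where 3.24% of all tested genes rose and 4.55% fell. Of 22 macrophage markers 9 rose and 1 fell (median 0.47); their summed level ran from 2468 to 3102 CPM (median 2826) in room air and from 2870.2 to 4169 CPM (median 3148) in O2, with overlap. Cd68, a lysosomal glycoprotein of macrophages, ran from 17.6 to 23.6 CPM (median 21) in room air and from 32 to 49.5 CPM (median 37) in O2. Its groups did not overlap, at 0.85 ± 0.05 on the log2 scale (adjusted p = 1.43e-11). The scavenger receptor Marco rose by 1.63 ± 0.15, Gpnmb, a glycoprotein of lipid-laden macrophages, by 1.56 ± 0.12, osteopontin (Spp1) by 1.87 ± 0.20 and the integrin Itgax by 0.67 ± 0.05, each without overlap (adjusted p = 7.75e-09, 5.49e-10, 8.32e-08 and 4.48e-10). Siglecf, a surface lectin of resident alveolar macrophages and eosinophils, went the other way and ran from 3.41 to 6.00 CPM (median 4.38) in room air and from 1.58 to 3.89 CPM (median 2.82) in O2 (-0.77 ± 0.13, adjusted p = 3.51e-05). The pan-macrophage receptor Adgre1 stood at 0.52 ± 0.06, under the fold minimum (adjusted p = 1.02e-07). Of 9 neutrophil genes 6 rose (median 0.70). The calgranulins S100a8 and S100a9 changed by 0.90 ± 0.13 and 0.74 ± 0.13, and the collagenase Mmp8 by 0.80 ± 0.14, with overlapping treatments (adjusted p = 4.32e-06, 4.61e-05 and 4.28e-05). With animals 22 and 23 kept, 4 of them rose, and the Mmp8 call was lost.

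Calls in other immune lists were fewer, where 3.24% of all tested genes rose and 4.55% fell. Of 18 complement genes 5 rose (median 0.24), namely Cfb, Cfi, C4b at 1.00 ± 0.12, the anaphylatoxin receptor C3ar1 at 0.94 ± 0.10 and the decay-accelerating factor Cd55 at 0.70 ± 0.05 (adjusted p = 4.78e-07, 5.46e-08 and 6.46e-11). Cfb and Cfi overlapped between treatments and the other 3 did not. With animals 22 and 23 kept, 3 complement genes rose and 1 fell. Of 16 cytokine genes 3 rose (median 0.29): Tnf, Lif, an interleukin 6 family cytokine, at 0.96 ± 0.15, and Il1a at 0.77 ± 0.16 (adjusted p = 1.47e-05 and 0.000383). Il1b ran from 4.25 to 11.9 CPM (median 6.86) in room air and from 4.12 to 9.29 CPM (median 6.25) in O2 and was not called (-0.27 ± 0.18, adjusted p = 0.218). Of 16 interferon response genes 1 rose (median 0.16); this was Ifit3, at 0.88 ± 0.11 (adjusted p = 5.35e-07). Of 12 tested lymphocyte genes 1 fell, the granzyme Gzma at -1.18 ± 0.27 (adjusted p = 0.000726). No call was made by edgeR among 8 dendritic cell, 3 thymocyte and 8 mast cell and basophil genes, whose medians were 0.07, -0.50 and 0.37. At an adjusted p under 0.05 without the fold minimum, 0, 2 and 6 of them passed.

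Kit and Aplnr led the falls among genes of capillary endothelium, where 4.55% of all tested genes fell and 3.24% rose. Of 12 genes of endothelial identity 1 fell, with a median of -0.36. Pecam1 ran from 547 to 673 CPM (median 638) in room air and from 512 to 611 CPM (median 555) in O2 and stood at -0.16 ± 0.04 on the log2 scale (adjusted p = 0.00144), whereas the transcription factor Sox17 fell by 0.65 without overlap (adjusted p = 1.63e-08). Of 8 genes of general capillary cells 3 fell and 1 rose (median -0.23). Kit, the stem cell factor receptor that marks these cells in the newborn, ran from 133 to 239.8 CPM (median 222) in room air and from 61.3 to 105 CPM (median 75.8) in O2. Aplnr, the apelin receptor, ran from 143 to 278 CPM (median 237) in room air and from 55.3 to 121 CPM (median 93.8) in O2. Both showed no overlap, and they changed by -1.30 ± 0.10 and -1.25 ± 0.13 (adjusted p = 3.8e-10 and 4.11e-08). Gpihbp1, which holds lipoprotein lipase on the capillary wall, fell by 0.96 (adjusted p = 1.97e-11), while the lipase itself, Lpl, rose by 0.61 ± 0.07 (adjusted p = 1.78e-07), a call lost without exposed XYM animal 25. In aerocytes, the gas exchange capillary cells, 1 of 8 genes rose and 1 fell (median -0.06). The ligand Apln ran from 71.5 to 116 CPM (median 97.9) in room air and from 99.5 to 225 CPM (median 145) in O2, with XXF animals highest, and rose by 0.59 ± 0.08 (adjusted p = 3.16e-06), a call lost in 10 of 22 fits that left out 1 animal. Fibin fell by 0.89 without overlap (adjusted p = 1.3e-08), and carbonic anhydrase 4 (Car4) stood at 0.55 ± 0.03, all exposed animals above all controls, under the fold minimum (adjusted p = 2.22e-11). Of 25 genes of VEGF, angiopoietin and Notch signaling 1 rose and 2 fell (median -0.07), Apln up and the ligand Angpt2 and Aplnr down. Of 8 lymphatic genes 1 rose and 1 fell: Lyve1, a hyaluronan receptor also found on macrophages, at 0.59 ± 0.08, and the chemokine Ccl21a at -0.95 ± 0.15 (adjusted p = 3.87e-06 and 2.04e-05). The Lyve1 call was lost when animals 22 and 23 were kept, when all XXM animals were left out and in 10 of 22 fits that left out 1 animal.

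No gene of alveolar type 2 cells was called, and most genes of type 1 cells stood higher in O2 by less than 1.5-fold. Among all tested genes 3.24% rose and 4.55% fell. Of 14 type 2 genes 0 were called by edgeR (median 0.10; 6 at an adjusted p under 0.05 alone), and Sftpc stood at 0.11 ± 0.05 (adjusted p = 0.0755). Of 12 type 1 genes 1 rose and 1 fell, yet 8 had every exposed animal above every control, against 3.71% of all tested genes, and the list median was 0.37. Akap5, a kinase anchoring protein, ran from 289 to 403 CPM (median 323) in room air and from 488 to 605 CPM (median 552) in O2 and was the rise (0.71 ± 0.05, adjusted p = 2.81e-10). The junction gene Cldn18 stood at 0.38 ± 0.03 and the chloride channel gene Clic5 at 0.51 ± 0.04, without overlap and under the fold minimum (adjusted p = 1.41e-09 and 5.11e-10). Igfbp2, a binding protein for insulin-like growth factors, fell by 0.72 (adjusted p = 0.000489). Of 10 genes of transitional cells, which arise in repair, 3 rose: Lcn2, the lectin Lgals3 at 0.79 ± 0.08 and the integrin Itgb6, which activates latent TGF-beta, at 0.63 ± 0.06 (adjusted p = 3.5e-08 and 2.99e-08). The Itgb6 call was lost without exposed animal 25 or 29. The keratin Krt8, which defines these cells, ran from 127 to 154 CPM (median 147) in room air and from 141 to 211 CPM (median 157) in O2 and stood at 0.20 ± 0.06 (adjusted p = 0.00496). Of 13 genes of ion and water transport 4 rose and 0 fell (median 0.42). The sodium channel subunit Scnn1a ran from 107 to 171 CPM (median 120.006) in room air and from 197 to 289 CPM (median 243) in O2. It did not overlap and changed by 0.88 ± 0.07, followed by the water channel Aqp4 at 0.88 ± 0.09, the subunit Scnn1b at 0.62 ± 0.05 and the sodium pump subunit Atp1b1 at 0.59 ± 0.06 (adjusted p = 4.6e-10, 2.29e-08, 2.58e-09 and 6.34e-08). The calls of Scnn1b and Atp1b1, close to the fold minimum, were lost without room-air animals 1, 3, 5, 10 and 11, and that of Atp1b1 also with animals 22 and 23 kept, without the low-count filter and in 9 of 22 fits that left out 1 animal. Of 18 genes of cholesterol and surfactant lipid synthesis 0 were called (median 0.13; 9 at an adjusted p under 0.05 alone).

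In the airways, 3 of 10 secretory and 3 of 10 ciliated genes rose, and 0 and 0 fell (medians 0.41 and 0.39). They were Pigr, Scgb3a2 and the antimicrobial gene Bpifa1, and Dnah5, Dynlrb2 and the cilium tip gene Sntn. Among all tested genes 3.24% rose. Summed levels overlapped between treatments, with medians of 6619 CPM in room air and 6621 CPM in O2 for the secretory list. For the ciliated list these medians were 443 and 434 CPM. Scgb3a2, a secretoglobin of club cells, ran from 722 to 1671 CPM (median 965) in room air and from 1291 to 2026 CPM (median 1539.8) in O2, with overlap, and rose by 0.62 ± 0.12 (adjusted p = 0.000133). Scgb1a1, the main club cell product, stood at -0.27 ± 0.06 and the P450 Cyp2f2 at 0.42 ± 0.06, under the fold minimum (adjusted p = 0.000999 and 6.33e-06). The dynein genes Dnah5 and Dynlrb2 changed by 0.66 ± 0.11 and 0.60 ± 0.07 (adjusted p = 3.95e-05 and 6.67e-07). The call of Scgb3a2 was lost in 3 and that of Dynlrb2 in 7 of 22 fits that left out 1 animal, animals 3 and 14 among those of both, and that of Dnah5 with animals 22 and 23 kept. Foxj1, the transcription factor that sets up motile cilia, ran from 38 to 59.5 CPM (median 44) in room air and from 49.6 to 82 CPM (median 55.4) in O2 (0.42 ± 0.08, adjusted p = 0.00011) and was not called, and the ciliated marker Tppp3 lay on the other side of 0 at -0.41 ± 0.06 (adjusted p = 7.72e-06).

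**Figure D4:**
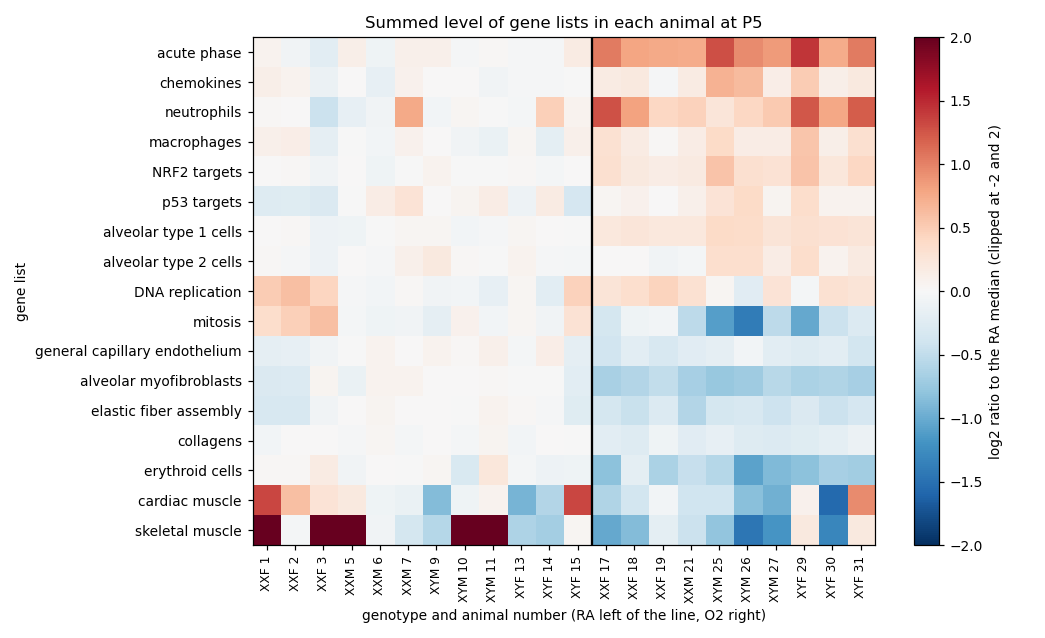
Rows are gene lists and columns the 22 animals, room air at the left and O2 at the right; color is the log2 ratio of the summed CPM of the list in that animal to the median of the 12 room-air animals. Alveolar myofibroblasts run blue and acute phase genes red in every exposed animal, skeletal muscle is dark red in room-air animals 1, 3, 5, 10 and 11, and mitosis is darkest blue in XYM 26, XYM 25 and XYF 29.

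Pdgfra led the falls among mesenchymal genes, where 4.55% of all tested genes fell. Of 12 genes of alveolar myofibroblasts 4 fell and 0 rose (median -0.44), namely Pdgfra, Tgfbi, Enpp2 and Mustn1, and their summed level ran from 2509.9 to 3241 CPM (median 3079.7) in room air and from 1815 to 2185 CPM (median 1967) in O2, without overlap. Pdgfra, the platelet-derived growth factor receptor that defines them, ran from 119 to 233 CPM (median 179) in room air and from 53.5 to 72 CPM (median 63.6) in O2. The highest exposed animal was below the lowest control, and the change was -1.43 ± 0.10 on the log2 scale (2.7-fold lower, adjusted p = 1.49e-10). The matrix protein Tgfbi fell by 0.82 and Enpp2, autotaxin, by 0.84, without overlap (adjusted p = 4.72e-10 and 2.75e-08), whereas smooth muscle actin (Acta2) stood at -0.45 ± 0.05, under the fold minimum (adjusted p = 1.62e-07). Of 12 matrix fibroblast genes 2 fell (median -0.30), the transcription factor Tcf21 at -0.64 ± 0.05 and Col14a1 at -0.67 ± 0.06 (adjusted p = 7.52e-10 and 4.69e-09). Of 8 pericyte genes 2 fell, Pdgfrb and the G protein regulator Rgs5 (median -0.25). Pdgfrb, the receptor that marks pericytes, ran from 276 to 500.4 CPM (median 434) in room air and from 212 to 267 CPM (median 244) in O2 and changed by -0.74 ± 0.08 (adjusted p = 1.77e-07).

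In the matrix, 4 of 20 genes of elastic fiber assembly fell and 0 rose (median -0.45), namely Mfap2, Fbln1, Fbln2 and Ltbp2. Every exposed animal lay below every control for 10 of the 20, against 3.49% of all tested genes. By the calling rule 4.55% of all tested genes fell and 3.24% rose. Elastin itself, Eln, ran from 2129.5 to 3526 CPM (median 3048) in room air and from 1722 to 3484 CPM (median 2525) in O2. The treatments overlapped widely, and Eln was not called (-0.17 ± 0.09, adjusted p = 0.141). The microfibril protein Mfap2 ran from 224 to 293 CPM (median 265) in room air and from 106 to 173 CPM (median 128) in O2 without overlap and fell by 1.00 on the log2 scale (adjusted p = 2.15e-10). Fibulin 1 (Fbln1) changed by -0.72 ± 0.05 (adjusted p = 2.73e-10), and Emilin1 and the latent TGF-beta binding protein Ltbp1 stood at -0.45 ± 0.03 and -0.46 ± 0.04, without overlap but under the fold minimum (adjusted p = 8.78e-11 and 7.93e-10). Of 19 collagens 4 fell and 3 rose (median -0.23). The fibrillar Col1a1 and Col3a1 fell by 0.64 and 0.62 and Col6a2 by 0.70, beside Col14a1 (adjusted p = 1.6e-09, 2.17e-10 and 6.39e-12). Col4a3, a basement membrane chain, ran from 206 to 293 CPM (median 228) in room air and from 341 to 467 CPM (median 378) in O2 without overlap and rose by 0.73 ± 0.06, as did its partner chain Col4a4 by 0.68 ± 0.06 (adjusted p = 2.39e-09 and 1.24e-09). The rise of Col5a3 (0.63 ± 0.21, adjusted p = 0.0151) was not called without the XXM animals or in 6 of 22 fits that left out 1 animal; exposed XXM animal 21 was highest.

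Lists of growth factor signaling held calls in both directions, where 7.79% of all tested genes were called. Of 28 genes of TGF-beta, activin and BMP signaling 3 rose and 2 fell (median 0.02). With animals 22 and 23 kept, 1 rose. Among ligands, Inhba rose and Bmp2 fell by 0.69 (adjusted p = 5.53e-07), while Tgfb1 ran from 58.2 to 70.4 CPM (median 63.1) in room air and from 52.3 to 65.6 CPM (median 61.6) in O2 and was not called (-0.10 ± 0.04, adjusted p = 0.0536). Among antagonists, the activin inhibitor Fst rose and the BMP inhibitor Grem1 fell by 1.20 (adjusted p = 0.000124). The receptor Tgfbr2 stood at 0.30 ± 0.03, under the fold minimum (adjusted p = 1.94e-08). Of 27 FGF, WNT and hedgehog genes 1 rose and 3 fell (median -0.18). The falls were Lef1, the transcription factor Etv4 and the ligand Wnt11. Lef1, which carries WNT signals in the nucleus, fell by 0.90, the secreted WNT modulator Sfrp1 rose by 0.66 ± 0.14, and the ligands Wnt2 and Fgf10 stood at -0.51 ± 0.06 and -0.49 ± 0.08 (adjusted p = 1.42e-07, 0.000442, 2.12e-07 and 9.84e-06). Of 16 genes of the insulin-like, epidermal and platelet-derived growth factor axes 2 rose and 2 fell (median 0.03). Igf1 ran from 78.9 to 112 CPM (median 93.5) in room air and from 139.5 to 175 CPM (median 149.998) in O2 without overlap and rose by 0.69 ± 0.05, and the ERBB ligand Nrg1 by 0.86 ± 0.14 (adjusted p = 4.6e-10 and 2.59e-05). Tnc, tenascin C, fell by 0.81 (adjusted p = 2.99e-08). Imprinted growth genes gave 2 falls of 10 (median -0.38), Dlk1 and the noncoding RNA H19, which fell by 1.06 without overlap (adjusted p = 6.83e-07). Of 12 retinoid genes 1 rose and 2 fell (median -0.04). Aldh1a1, which makes retinoic acid, ran from 189 to 306 CPM (median 199) in room air and from 369 to 465 CPM (median 424) in O2 without overlap and rose by 0.94 ± 0.08, while Cyp26b1, which degrades it, fell by 1.08 and the binding protein Crabp1 by 1.36 (adjusted p = 3.44e-09, 9.73e-07 and 0.000632).

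Clock genes were called in both directions, and 1 glucocorticoid target fell, where 7.79% of all tested genes were called. Of 17 clock genes 2 rose and 1 fell (median 0.11), Dbp and the repressor Nr1d1 up, Nr1d1 by 0.70 ± 0.15 and the activator Hlf down by 0.92 (adjusted p = 0.000355 and 1.5e-06). Of 11 glucocorticoid targets 1 fell, the phosphatase Dusp1 at -0.92 ± 0.26, with overlap (adjusted p = 0.00557; median of the list -0.15). The hour of collection is not given in the sources used here. The E-box CACGTG was present in 5 of 15 matched clock genes and in 7.15% of all promoters. Of the 3 matched clock genes that were called, 0 held it.

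Genes of blood, muscle and other tissues were listed to show what else the libraries held, where 3.24% of all tested genes rose and 4.55% fell. Of 11 erythroid genes 8 fell and 0 rose (median -0.62), and their summed level ran from 5325 to 7675 CPM (median 6559.8) in room air and from 3113 to 5720.04 CPM (median 4107) in O2, with overlap. Hbb-bs, an adult beta globin, fell by 0.64 (adjusted p = 5.76e-07); with animals 22 and 23 kept, 4 members fell and 1 rose, and without the 5 room-air animals named below 5 fell. Globin genes have near-identical copies, so their counts may be split between copies. Of 8 platelet genes 2 rose, Ppbp and Treml1 (median 0.50), and of 11 coagulation genes 2 rose, Plau among them (median 0.17). Of 8 skeletal muscle genes 7 fell (median -2.59), with summed levels from 15.3 to 882 CPM (median 24.4) in room air and from 8.99 to 27.9 CPM (median 13.8) in O2. Room-air animals XXF 1, XXF 3, XXM 5, XYM 10 and XYM 11 held 359 to 882 CPM, and the other 7 room-air animals 15.3 to 25.1 CPM. Without these 5 animals 2 of the genes fell and 0 rose (median 0.05), and the whole comparison called 607 genes up and 678 down. Of 9 cardiac genes 4 fell, Actc1, Myl4, Myl7 and Csrp3 (median -0.27; 0 fell without the same 5 animals), with summed levels from 171 to 815 CPM (median 324) in room air and from 109.9 to 624 CPM (median 246) in O2. Liver gave 1 rise among 3 tested genes (Afp), adipose tissue 1 fall among 2 (Plin4), and neuroendocrine cells and nerve 2 rises (Calca and Resp18) and 1 fall among 6. Their medians were 1.04, -0.77 and 0.32. The liver and adipose calls were lost with animals 22 and 23 kept and without room-air animals 1, 3, 5, 10 and 11. Exposed XXM animal 21 held 83.1 CPM of liver genes, against 2.36 to 23.2 CPM in the other exposed animals, and room-air XYM animal 11 held 106 CPM of adipose genes, against 2.07 to 32 CPM in the other room-air animals. No call was made by edgeR among 6 genes of mesothelium (median 0.15; 2 at an adjusted p under 0.05 alone). The part of these tissues in the results above was not tested.

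Mitochondrially encoded genes stood higher in O2, a set chosen after its values were seen. Of 12 tested protein genes of the mitochondrial genome 2 rose (mt-Nd2 and mt-Nd3) and 0 fell, 7 had every exposed animal above every control, and the median was 0.45. Among all tested genes 3.24% rose and 3.71% had every exposed animal above every control. The complex I subunit mt-Nd2 ran from 917 to 1203 CPM (median 1059) in room air and from 1489.7 to 1787 CPM (median 1607) in O2 and rose by 0.62 ± 0.05 (adjusted p = 3.04e-09), a call lost when animals 22 and 23 were kept and when XXM animals were left out. Without room-air animals 1, 3, 5, 10 and 11 5 of the 12 rose. The subunit mt-Nd1 stood at 0.51 ± 0.04 and mt-Co1, of cytochrome oxidase, at 0.40 ± 0.03, without overlap (adjusted p = 7.65e-10 and 2.78e-09). As a share of all counts, mitochondrial transcripts made up 1.58% ± 0.0936 (SD, n = 12) in room air and 2.15% ± 0.0651 (SD, n = 10) in O2.

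The pooled response was then compared between genotypes. Of the 1272 called genes, 1199 changed with the same sign in all 4 genotypes when each was given its own mean, although XXM O2 rested on 1 animal. The genes were called on the pooled change of these same animals, which favors a shared sign. The share among all tested genes was not computed. A test of the 3 differences of the O2 response between genotypes called 0 of 16323 genes (0%) in edgeR, with a smallest adjusted p of 0.44. At an unadjusted p under 0.05 1491 genes passed, and DESeq2 called 16. The 3 smallest p-values belonged to Flt3, Plbd1 and Fam102b. Flt3, a receptor of dendritic cell precursors, responded on the log2 scale by 1.97 ± 0.36 in XXF animals, 0.04 ± 0.50 in the XXM animal, 0.0038 ± 0.28 in XYF animals and -0.75 ± 0.31 in XYM animals. Plbd1, a phospholipase-like protein of myeloid cells, changed by 0.60 ± 0.16, -0.23 ± 0.24, -0.09 ± 0.15 and -0.74 ± 0.16 in the same order, and Fam102b by -0.40 ± 0.06, 0.01 ± 0.08, -0.55 ± 0.06 and -0.51 ± 0.06. Cdkn1a, by comparison, changed by 1.46 ± 0.16, 1.69 ± 0.21, 2.07 ± 0.16 and 2.21 ± 0.16, in the same order. Pdgfra changed by -1.01 ± 0.16, -1.84 ± 0.26, -1.50 ± 0.16 and -1.59 ± 0.16 in that order. On the X chromosome 15 genes rose and 20 fell of 524 tested, where 3.24% of all tested genes rose and 4.55% fell. Of 6 tested Y genes 0 were called. Of 5 tested genes listed to check the sex chromosomes 0 were called (median 0.19).

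Most genes called at P5 responded differently at P21. The difference of the O2 effects, P5 minus P21, was called for 2101 of 17435 genes (12.1%), 1131 of them positive (6.49%) and 970 negative (5.56%). Of the 529 genes that rose at P5, 399 differed between ages, 13 also rose at P21 and 30 fell there. Of the 743 that fell, 442 differed, 108 also fell at P21 and 31 rose. The same rule at P21 called 3.58% of the genes tested at P5, and the median P21 change was -0.143 for genes that rose at P5 and -0.0788 for genes that fell. The ages share no animals. The genes called at P5 were called on P5 animals that also enter the difference, which favors a called difference. Skeletal and cardiac muscle lists had medians of -2.59 and -0.27 at P5 and of -2.03 and -1.67 at P21. The part of muscle in the falls shared by both ages was not tested.

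**Figure D5:**
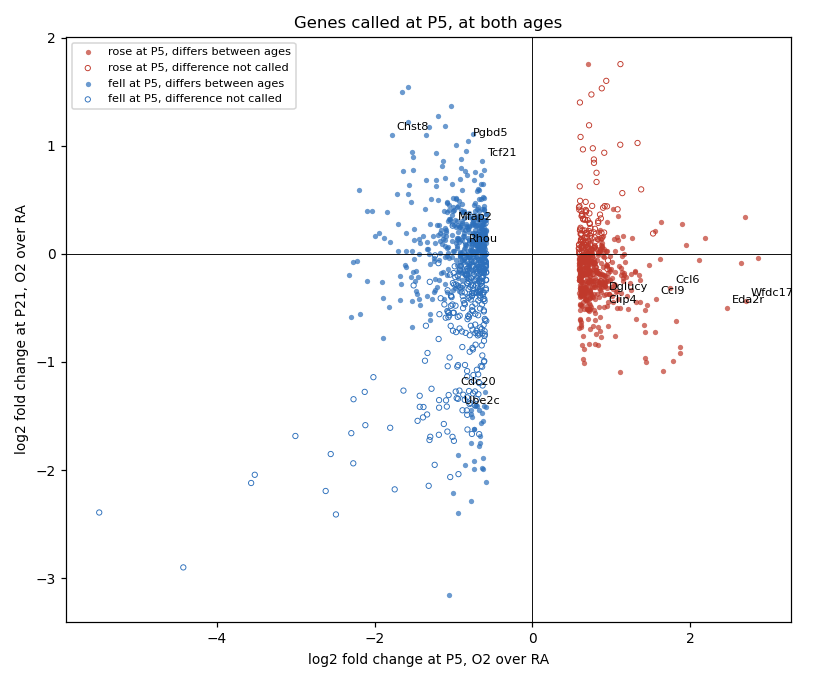
Each point is a gene called at P5, placed by its log2 fold change at P5 (x axis) and at P21 (y axis), both O2 over RA; filled points differ between ages by the test of the difference and open points were not called in that test. Most points lie near the zero line of the P21 axis, and labels name genes among the 12 with the smallest p of the difference and 2 mitotic genes.

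Among rises, Eda2r stood at 2.41 at P5 and -0.50 ± 0.16 at P21 in the fit of both ages (difference 2.91 ± 0.23, adjusted p = 7.16e-12). Wfdc17 gave 2.68 and -0.43 ± 0.19 (difference 3.11 ± 0.29, adjusted p = 2.6e-10), and Ccl6 1.73 and -0.31 ± 0.13 (difference 2.04 ± 0.19, adjusted p = 1.24e-10). Ccl9, the glutamate-cyclizing enzyme gene Dglucy and the microtubule-end gene Clip4 followed with differences of 1.96 ± 0.18, 1.26 ± 0.11 and 1.38 ± 0.10. At P21 Clip4 and Dglucy stood at -0.49 ± 0.07 and -0.38 ± 0.07. Among falls, the sulfotransferase Chst8 stood at -1.81 at P5 and 1.10 ± 0.16 at P21 (difference -2.91 ± 0.25, adjusted p = 5.17e-11), the transposase-derived gene Pgbd5 at -0.82 and 1.05 ± 0.11 (difference -1.87 ± 0.15, adjusted p = 1.74e-11) and Tcf21 at -0.66 and 0.86 ± 0.09 (difference -1.52 ± 0.13, adjusted p = 5.17e-11). Mfap2 and the GTPase Rhou differed by -1.29 ± 0.11 and -1.12 ± 0.10. Mitotic genes stood lower in O2 at P21 too, with a median of -1.41 there against -0.69 at P5, and 15 of 24 members differed between ages. Replication genes had a median of -0.39 at P21 against 0.09 at P5. For macrophages and alveolar myofibroblasts the P21 medians were -0.17 and 0.17, against 0.47 and -0.44 at P5.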

How the data were processed

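Flash-frozen whole lungs gave oligo-dT selected, stranded libraries that were sequenced as 2 × 76 base reads. The deposited table holds raw counts per gene, which the authors made from reads aligned to mm10; HISAT2 and featureCounts are named in the submitters' processing notes, and no source used here states versions, strandedness of the counting or which annotation was counted. Symbols and coordinates were taken from GENCODE vM21 on GRCm38, which matched 52403 of 52550 genes. Counts of 22 animals at P5 were fitted in R 4.3.3 with edgeR 4.0.16 (trimmed mean of M-values scaling, low-count filter by treatment with a minimum of 10 counts, quasi-likelihood F test) on genotype and treatment, and 46 animals of both ages in a joint fit. Called genes had a Benjamini-Hochberg adjusted p under 0.05 and a change of at least 1.5-fold. CPM are counts scaled to an effective library size of 1000000, SE is the log2 fold change divided by the square root of F, and permutation tests used scipy 1.17.1. On simulated counts with the pooled design, over 16323 genes, 28 of 50 genes changed 1.5-fold, 49 of 50 changed 2-fold and 50 of 50 changed 3-fold were called, with 3 false calls. A true 1.5-fold change lies at the fold minimum, so its count reflects that rule as well as power. Changed genes were drawn only from those above a minimum expected count, so recovery of low-count genes was not measured. Only 50 genes were changed at each fold, far fewer than passed the adjusted p in the data. Simulated animals shared 1 mean level per gene before the change. Genotype effects and the room-air animals set apart in muscle or mitosis were therefore not simulated. Smaller libraries carry more counting error.

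The 54 lists and the animals compared were chosen with earlier results of these data known, and lists are described by counts and medians only. Named genes were the 15 largest rises and falls among called protein-coding genes of at least 1 CPM without overlap, of each list the first 2 members, the 4 with the smallest p and those called against the rest, the 6 genes in each direction with the clearest age difference, and the 3 with the smallest p between genotypes; other called members are named after their values were seen. A few genes that these rules name are not reported here. Alternatives covered DESeq2 1.42.0, other scaling, filters, designs and animals, thinned counts, 1 surrogate variable (sva 3.50.0) and each animal left out. The labels give no batch, and the column of 1 room-air XXF animal of P21, animal 34, carries another age in its name and labels than in its title, which was followed. Promoters came from RefSeq (GRCm38.p6).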

Additional observations from a re-analysis of the deposited data

Results flagged for a closer look

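Among the 10 exposed animals, the highest or lowest animal was set far apart from the others for 10 of 152 results tested, where chance alone sets apart about 1 in 20. XYF animal 29 was highest for Ccl9 at 50.4 CPM, Cd68 at 49.5 CPM and Il1a at 5.82 CPM. XYM animal 25 was highest for Hmox1 at 149.7 CPM and Lpl at 190.9 CPM. XXM animal 21, the lone exposed animal of its genotype, was highest for Col5a3 at 14.4 CPM and Fam102b at 78.8 CPM. Apln reached 225 CPM in XXF animal 19, Plbd1 25.6 CPM in XXF animal 17 and Apba2 1.11 CPM in XYM animal 27. The rises of Ccl9, Cd68, Il1a and Hmox1 and the fall of Apba2 were called in every fit that left out 1 animal.

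The response differed between P5 and P21, by the test of the difference itself, for 2101 genes. On the log2 scale and as P5 minus P21, the difference was 3.11 for Wfdc17, 2.91 for Eda2r, 2.04 for Ccl6, 1.96 for Ccl9, 1.38 for Clip4 and 1.26 for Dglucy. It was -2.91 for Chst8, -1.87 for Pgbd5, -1.52 for Tcf21, -1.29 for Mfap2 and -1.12 for Rhou. Of 24 mitotic genes 15 differed, with the lower level in O2 more marked at P21.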

How the results depend on the processing

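Pooled counts stayed within 1.5 times of 529 up and 743 down under DESeq2, RLE scaling, equal genotype weights, no genotype block, thinned counts, 1 surrogate variable, an unadjusted p, and other choices of animals. The lowest of these counts came with thinning to the smallest library (419 up and 569 down), and with animals 22 and 23 kept 479 rose and 663 fell. Without the low-count filter 1142 fell of 34909 tested. Without the fold minimum 3958 rose and 4007 fell, and 5939 genes differed between ages. Leaving out 1 animal gave 487 to 599 up, 690 to 838 down and 1975 to 2299 age differences. The genotype difference called 0 genes, but 16 with DESeq2, 695 without the filter, 713 at an unadjusted p with the fold minimum, and 0 to 4 when 1 animal was left out, with 4 without XYF RA animal 15. The cause of these shifts was not tested. Leaving out XXM O2 animal 21 gave no value for the genotype difference, since its group then has no animal.

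Of 114 called genes with values, 15 lost the call in at least 1 of 32 settings, 9 of them with animals 22 and 23 kept, and 99 kept it in every setting that gave them a value (thinning gave none for some). Within XXF alone the sign turned for Mcm2 (-0.11), Pcna (-0.034), Plbd1 (0.60), Eln (0.011), Il1b (0.20), Dusp1 (0.0084) and Crabp1 (0.037), and within XYM alone for Flt3 (-0.75), with no test of these values. Without a turned sign, 62 of the 114 called genes were counted as moved from the pooled value within XXF, 61 within XYM and 22 within XYF. These shifts were not tested either. A set of animals was left out after the data were seen: without room-air animals 1, 3, 5, 10 and 11, the calls of Apln, Atp1b1, Dynlrb2 and Scnn1b were lost. No paired analysis was possible because animal numbers are unique to a group, so that the groups share no replicate number. Thinning lowers depth and left 14392 genes to test against 16323, so fewer calls follow from it in any case. Whether the depth of the full libraries limited the calls was not tested.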
